A study of Mus musculus with 6 samples.

Results

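The genes described here are those by which a cell presents peptides on major histocompatibility complex (MHC) class II. They are 8 of the 54532 genes in the deposited table and were taken by name: the chain genes H2-Aa, H2-Ab1 and H2-Eb1, the invariant chain gene Cd74, the transactivator gene Ciita, the peptide exchange genes H2-DMa and H2-DMb1, and the protease gene Ctss. The RNA came from bone marrow (BM) of C57BL/6 mice with a leukemia driven by JAK3 M511I, an activated form of the Janus kinase JAK3, in 3 libraries read here as Phf6 WT (WT 1 to WT 3) and 3 read as Phf6 KO (KO 1 to KO 3). The genotype labels give Phf6, Phf7 and Phf8 in turn for replicates 1, 2 and 3 of each group, while the series design has Phf6 only, and reading all 6 as Phf6 is an assumption. Lineage-negative BM cells of 8-week-old males, either Phf6 fl/y without Cre (WT) or Vav1-Cre;Phf6 fl/y (KO), were infected with a retrovirus carrying JAK3 M511I and GFP and injected into 8-week-old male recipients. BM was collected at day 100 after transplantation. Both groups therefore carry the kinase, the virus, the floxed allele and the transplantation, and Cre under the Vav1 promoter is active throughout blood cells. The study, which describes a line with Mx1-Cre as well, names Vav1-Cre for the cells it profiled. It calls them T-cell acute lymphoblastic leukemia cells. The labels name neither the Cre line nor any sorting of GFP+ cells before RNA extraction. Cells of the recipients and untransformed blood cells may therefore be part of each library. In primary recipients, at another time after transplantation, the study reports a higher percentage of GFP+ cells in BM of KO than of WT mice.

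MHC class II molecules are pairs of an alpha and a beta chain on the surface of antigen-presenting cells, above all B cells, dendritic cells and macrophages, where they show peptides to CD4+ T cells. The chains are assembled with the invariant chain CD74, cathepsin S (Ctss) trims that chain down to a short peptide called CLIP, and H2-DM exchanges CLIP for peptides from endosomes. H2-O restrains H2-DM, and CIITA switches the chain genes and Cd74 on by joining the factors RFX, CREB and NF-Y at their promoters. Mouse T cells carry little or no class II, and C57BL/6 mice lack a working H2-Ea gene, so that they make the molecule I-A from H2-Aa and H2-Ab1 but no I-E at the surface, although H2-Eb1 is transcribed.

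The T-cell markers Cd3e, Cd3d and Cd8a were above 20 FPKM in all 6 libraries, and Cd3e lay between 22.6 and 60.03 FPKM. Other T-cell markers were not: Cd5 was at 15.3, 4.91 and 7.36 FPKM in KO 1, KO 2 and KO 3. Cd28 was at 12.2 FPKM in WT 2 and at 9.30 and 7.24 FPKM in KO 2 and KO 3. FPKM are fragments normalised to gene length and to the library size that the authors used. The value of Phf6 itself did not separate the labels, with 3.67 to 8.02 FPKM in WT and 5.11 to 6.73 FPKM in KO (log2 fold change -0.07, limma adjusted p = 0.893, and -0.37 with an adjusted p of 0.0992 without WT 2). The deletion spans exons 4 to 5, which a value over the whole gene cannot show, so WT and KO are used below as the labels give them, with the gene read as Phf6. Recovered reads ranged from 13015823 to 18235095 per library. WT 2 stood apart from the other libraries: 17.1% of its reads lay in genes shorter than 1000 bases, against 3.11% to 5.01% elsewhere, and its erythroid markers summed to 68045 FPKM, against 16.9 to 525 FPKM. The class II results below are therefore given with and without WT 2.

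To see how class II genes differed between the groups, the members were first followed library by library. H2-Aa, H2-Ab1, H2-Eb1, Cd74 and Ctss were lower in KO, and the rest were not called in the comparison of all 6 libraries. Of the 7 members that could be tested 5 fell and none rose, where 13.3% of all 13393 genes tested fell. A gene was tested where it reached 1 FPKM in at least 3 libraries, which the chain genes did mainly through WT, so the count among tested members is a description. In 6 of the 8 members every WT library lay above every KO library, as in 24.0% of the genes tested. With WT 2 set aside, WT 1 and WT 3 lay above all KO libraries in the same 6 and below them in none, against 35.9% and 36.2% of the genes tested, and 6 of 7 tested members fell, where 25.3% of all genes fell and 52.0% were called in either direction. In bulk RNA, fewer cells of a type and less RNA per cell cannot be told apart.

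**Figure D1:**
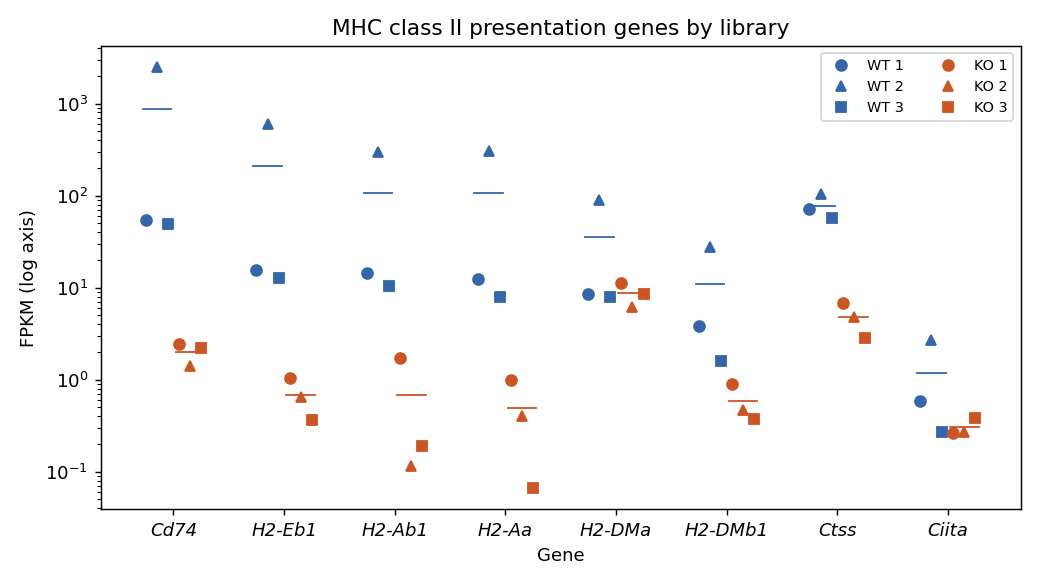
FPKM of the 8 class II genes in each library, on a log axis, with WT in blue, KO in orange and a line at each group's mean. WT 2 lies above all other libraries for each gene, and WT 1 and WT 3 lie above all KO libraries for H2-Aa, H2-Ab1, H2-Eb1, Cd74, H2-DMb1 and Ctss but not for Ciita or H2-DMa.

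H2-Aa (ENSMUSG00000036594, GRCm38 chr17:34282744-34287827, minus strand), the alpha chain of I-A, measured 12.3, 303 and 7.95 FPKM in WT 1, WT 2 and WT 3 and 1.00, 0.407 and 0.0663 FPKM in KO 1, KO 2 and KO 3. The reads behind these values were 357, 6680 and 231 in WT and 35, 12 and 2 in KO. WT 2 alone was 29.9-fold above the mean of WT 1 and WT 3, which in turn was 20.6-fold above the KO mean. H2-Ab1 (ENSMUSG00000073421, chr17:34263209-34269418, plus strand), the beta chain of I-A, measured 14.4, 298 and 10.4 FPKM in WT and 1.74, 0.116 and 0.190 FPKM in KO. Its KO libraries held 53, 3 and 5 reads, so that KO 2 and KO 3 were at or near the counting floor of 3 reads while KO 1 was not. H2-Eb1 (ENSMUSG00000060586, chr17:34305877-34316199, plus strand), the beta chain of I-E, measured 15.7, 605 and 12.6 FPKM in WT and 1.04, 0.644 and 0.367 FPKM in KO. For all 3 chains the order of the libraries was WT 2, then WT 1, then WT 3, and each KO library lay below each WT library.

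In the comparison across all genes (limma on log2(FPKM + 1), which understates changes of low genes), the log2 fold change of KO against WT was -4.52 (SE 1.29, adjusted p = 0.0447) for H2-Aa, -4.61 (SE 1.24, adjusted p = 0.0363) for H2-Ab1 and -4.96 (SE 1.41, adjusted p = 0.0442) for H2-Eb1. Without WT 2 the falls were smaller and their errors smaller still: -2.92 (SE 0.32, adjusted p = 0.00108), -3.11 (SE 0.43, adjusted p = 0.00231) and -3.18 (SE 0.22, adjusted p = 0.000228). The 3 calls with WT 2 in place were close to the threshold of 0.05. Without WT 1, limma's adjusted p was 0.0614, 0.0518 and 0.0534 for the 3 genes. Without any single KO library it lay between 0.0848 and 0.143, whereas without WT 3 it lay between 0.0307 and 0.0365. With no filter on low values, or with voom on the recovered reads, neither the chains nor Cd74 passed, and with the filter at a mean FPKM of 5 H2-Ab1 and Cd74 passed but H2-Aa and H2-Eb1 did not.

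Cd74 (ENSMUSG00000024610), the invariant chain that escorts newly made class II, had the highest level of the class II genes in WT 2 and was second to Ctss in WT 1 and WT 3. It measured 54.8, 2496 and 49.1 FPKM in WT and 2.44, 1.40 and 2.20 FPKM in KO, from 1193, 41373 and 1073 reads and 64, 31 and 50 reads. WT 1 and WT 3 differed little, their mean was 25.8-fold above the KO mean, and WT 2 was another 48.0-fold above them. The log2 fold change was -6.00 (SE 1.47, limma adjusted p = 0.0263), and -4.15 (SE 0.20, adjusted p = 7.27e-05) without WT 2. Without WT 1 the adjusted p was 0.0362, and without KO 1, KO 2 or KO 3 it was 0.0867, 0.0959 and 0.0878 by limma, so the call rested on having all 3 KO libraries when WT 2 was present. Cd74 overlaps the miRNA gene Mir5107 on the same strand over 88 bases, which reached at most 122.8 FPKM.

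Ctss (ENSMUSG00000038642, chr3:95526786-95556403, plus strand), cathepsin S, had the smallest spread within WT relative to its mean. It measured 70.7, 105 and 57.6 FPKM in WT (77.9 ± 24.6, SD, n = 3) and 6.84, 4.82 and 2.84 FPKM in KO (4.83 ± 2.002, SD, n = 3). The groups were far apart in every library, and WT 2 was 1.64-fold above the mean of WT 1 and WT 3. The log2 fold change was -3.77 (SE 0.37, limma adjusted p = 0.000982), and -3.53 (SE 0.31, adjusted p = 0.0005) without WT 2. Ctss passed under each of the 19 alternative settings, in which its adjusted p reached at most 0.00858, and in the plot of called members by setting it was the only member called throughout. It overlaps the pseudogene Hmgb1-ps5 on the same strand over 557 bases, which reached at most 10.8 FPKM.

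H2-DMa and H2-DMb1 encode the alpha and beta chains of H2-DM, and they did not move alike. H2-DMa (ENSMUSG00000037649, chr17:34135182-34139101, plus strand) measured 8.53, 89.6 and 7.86 FPKM in WT and 11.2, 6.23 and 8.59 FPKM in KO. The groups overlapped: outside WT 2 its values were level, and the mean of WT 1 and WT 3 was 0.946 times the KO mean. Its log2 fold change was -1.06 (SE 0.90, limma adjusted p = 0.443), and 0.040 (SE 0.24, adjusted p = 0.895) without WT 2.

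H2-DMb1 (ENSMUSG00000079547, chr17:34153072-34160230, plus strand) measured 3.84, 27.5 and 1.61 FPKM in WT and 0.904, 0.470 and 0.376 FPKM in KO. Its groups did not overlap, but the log2 fold change of -2.18 (SE 0.84) did not pass (limma adjusted p = 0.109), whereas without WT 2 it was -1.18 (SE 0.31) and passed (adjusted p = 0.0215). It also passed without WT 3, at -2.91 with an adjusted p of 0.0426 by limma. H2-DMb1 shares 4.71% of its 150-base transcript windows with its neighbour H2-DMb2, so reads of the pair may in part be exchanged.

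Ciita (ENSMUSG00000022504, chr16:10480059-10528418, plus strand), the transactivator of the chain genes, was low in all libraries. It measured 0.584, 2.69 and 0.271 FPKM in WT and 0.265, 0.273 and 0.384 FPKM in KO, from 86, 301 and 40 reads and 47, 41 and 59 reads. WT 3 lay within the KO range, so the groups overlapped, and the mean of WT 1 and WT 3 was 1.39-fold the KO mean. Ciita did not reach the level set for testing. With no filter on low values its log2 fold change was -0.58 (limma adjusted p = 0.427). The span of the gene, introns included, overlaps that of Dexi on the opposite strand over 25888 bases. Their exons were not compared, and without strand any reads in shared exons could not be told apart.

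Together the 8 genes took 265, 3641 and 225 RPM (reads scaled to the total of the library) in WT 1, WT 2 and WT 3 and 47.6, 28.7 and 30.2 RPM in KO 1, KO 2 and KO 3. Since FPKM is per length, levels can be ordered between genes. In WT 1 and WT 3 the order was Ctss, Cd74, H2-Eb1, H2-Ab1, H2-Aa, H2-DMa, H2-DMb1 and Ciita, although H2-Eb1 and H2-Ab1, H2-Ab1 and H2-Aa, and H2-Aa and H2-DMa overlapped in range over these libraries. In WT 2 Cd74 led, followed by H2-Eb1. In each KO library H2-DMa came first, then Ctss, then Cd74, and H2-DMa made up 43.9%, 43.4% and 57.2% of the summed FPKM of the 8 genes, against 4.72%, 2.28% and 5.33% in WT.

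The chain genes carry a shared promoter module, the X box bound by RFX with CREB and the Y box bound by NF-Y, and its letters were looked up in RefSeq promoter windows (GRCm38.p6, 250 bases before to 50 after the start). The X box was searched as AG, any 2 bases, AC, any 2 bases and ATG, and the Y box as ATTGG, on both strands, and the pair was counted where an X box was followed by a Y box 10 to 30 bases further on the same strand. Of 32851 windows, 3.09% held the X letters, 37.4% the Y letters and 0.07% (23 windows of 22 genes) the pair. Among those 22 genes were H2-Eb1, H2-Eb2, H2-DMb1 and H2-Ob. The 120 bases from 145 to 26 before the RefSeq start are printed below for the class II genes with X or Y letters in that stretch, with matches in capitals, to show that genes lower in KO (H2-Eb1, H2-Ob) and the gene higher in KO (H2-Eb2) hold the same pair of letters.
H2-Aa, chr17:34287849-34287968, minus strand: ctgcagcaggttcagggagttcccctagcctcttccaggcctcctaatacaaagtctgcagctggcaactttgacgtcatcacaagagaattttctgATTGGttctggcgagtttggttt
H2-Eb1, chr17:34305722-34305841, plus strand: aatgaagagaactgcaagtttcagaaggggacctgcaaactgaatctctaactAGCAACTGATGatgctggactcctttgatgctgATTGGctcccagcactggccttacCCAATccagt
H2-Eb2, chr17:34325530-34325649, plus strand: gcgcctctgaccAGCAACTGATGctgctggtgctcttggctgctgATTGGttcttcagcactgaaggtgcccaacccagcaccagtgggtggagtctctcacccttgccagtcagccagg
H2-DMb1, chr17:34153046-34153165, plus strand: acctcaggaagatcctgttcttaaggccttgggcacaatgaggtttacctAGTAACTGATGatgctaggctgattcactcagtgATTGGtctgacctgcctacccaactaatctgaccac
H2-Ob, chr17:34238760-34238879, plus strand: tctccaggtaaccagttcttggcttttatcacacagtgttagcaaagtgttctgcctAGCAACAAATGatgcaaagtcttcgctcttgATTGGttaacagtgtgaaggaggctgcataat
H2-Oa, chr17:34092234-34092353, plus strand: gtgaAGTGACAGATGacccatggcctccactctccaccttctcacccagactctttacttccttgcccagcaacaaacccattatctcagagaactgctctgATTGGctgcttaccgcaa
The gap between the X and Y letters was 22 bases in H2-Eb1 and H2-Eb2, 23 in H2-DMb1 and 20 in H2-Ob. H2-Oa had both, but too far apart to count as a pair, H2-Aa matched at Y alone, and the H2-Eb1 window also holds Y letters on the reverse strand. The Ctss window held neither. No window is printed for H2-Ab1, Cd74 or Ciita. The RefSeq starts of H2-DMa and H2-DMb2 lie 1942 bases or more from the start in the deposited table, so no sequence is given for them. A match is a description of the letters, not of binding.

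The other genes of the pathway were then read in the same fit. The lists for the pathway hold 51 genes, the 8 members included. Of these 45 could be tested, 10 fell and 2 rose, where 13.3% of all genes tested fell and 13.1% rose. Among chains, loading factors and endosomal enzymes the genes called outside the 8 members were H2-Ob, which fell, and H2-Eb2, which rose.

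**Figure D2:**
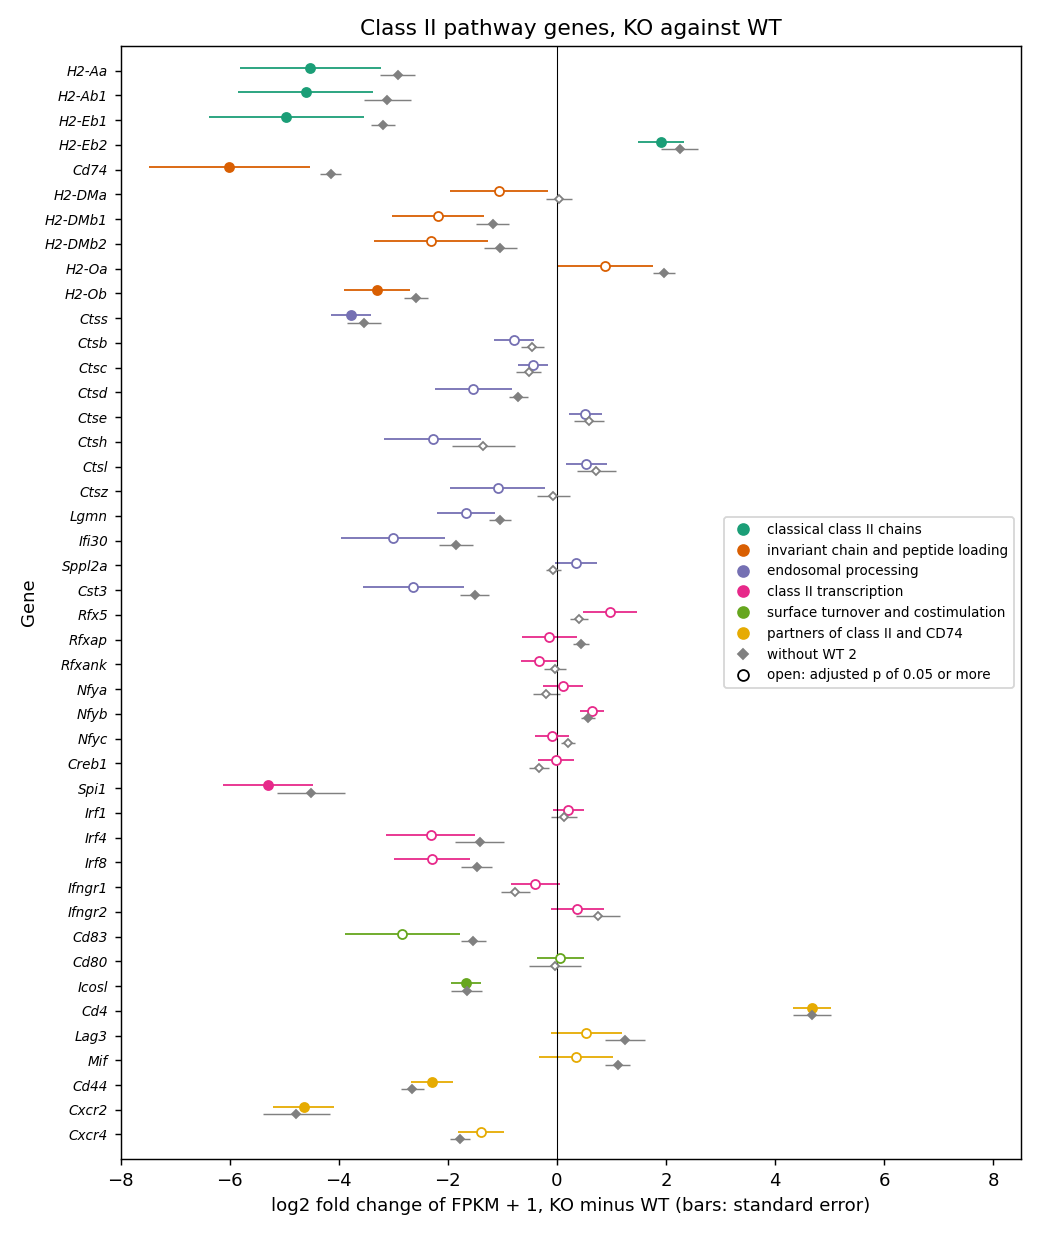
Log2 fold change (FPKM + 1) of KO against WT with its standard error for class II pathway genes that were tested, colored by list, with filled points for adjusted p under 0.05 and gray diamonds for the comparison without WT 2. H2-Eb1 and H2-Eb2 lie on opposite sides of 0, as do H2-Ob and H2-Oa, of which H2-Oa passes only without WT 2.

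H2-Eb2, a second class II beta gene beside H2-Eb1, ran against the other chains. It measured 0.176, 1.81 and 0.584 FPKM in WT and 3.86, 4.77 and 8.74 FPKM in KO, from 6, 47 and 20 reads and 159, 166 and 311 reads. Every KO library lay above every WT library, WT 2 included, as in 25.0% of the genes tested. Its log2 fold change was 1.90 (SE 0.42, limma adjusted p = 0.0182), and 2.25 (SE 0.33, adjusted p = 0.00302) without WT 2. The call was lost without WT 1, WT 3, KO 2 or KO 3, with adjusted p values from 0.0514 to 0.0644 by limma, and the direction was the same in all 18 alternatives in which it was tested. No 150-base window of its transcripts occurs in H2-Eb1, H2-Aa or H2-Ab1. H2-Ea-ps, the remnant of the I-E alpha gene, had 0 reads in 5 libraries and 0.372 FPKM in WT 2.

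The chains of H2-O, the partner that restrains H2-DM, moved apart. H2-Ob measured 7.13, 28.5 and 4.42 FPKM in WT and 0.119, 0.0806 and 0.118 FPKM in KO, where 7, 4 and 6 reads were left. It fell by 3.30 on the log2 scale (SE 0.61, limma adjusted p = 0.00946) and by 2.59 (SE 0.21, adjusted p = 0.000408) without WT 2, and it passed under all 19 alternatives. H2-Oa measured 1.48, 24.3 and 1.91 FPKM in WT and 10.5, 7.54 and 10.8 FPKM in KO. WT 2 lay above the KO libraries and the other WT libraries below them, so the groups overlapped, and the log2 fold change was 0.89 (SE 0.88, limma adjusted p = 0.513) with WT 2 and 1.97 (SE 0.20, adjusted p = 0.00086) without it. H2-Oa overlaps an antisense transcript over its whole length, which reached at most 0.707 FPKM. H2-DMb2, a second beta chain of H2-DM, measured 3.22, 47.0 and 1.70 FPKM in WT and 0.659, 0.260 and 1.13 FPKM in KO, with a log2 fold change of -2.31 (SE 1.04, limma adjusted p = 0.161) that became -1.04 (SE 0.30, adjusted p = 0.0308) without WT 2.

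Of the 12 genes of endosomal processing only Ctss fell and none rose, where 13.3% of all genes tested fell and 13.1% rose. The median log2 fold change was -1.31, against 0.09 over all genes tested. Without WT 2 a further 4 genes of the list fell. These were Ifi30, the thiol reductase of endosomes, at -1.85 (SE 0.31, limma adjusted p = 0.00478), Cst3, the cathepsin inhibitor cystatin C, at -1.51 (SE 0.27, adjusted p = 0.0057), Lgmn, a lysosomal endopeptidase, at -1.04 (SE 0.20, adjusted p = 0.00703) and Ctsd, an aspartic protease, at -0.71 (SE 0.17, adjusted p = 0.0156). With WT 2 their adjusted p values lay between 0.0628 and 0.166 by limma. Without WT 2, 25.3% of all genes tested fell and 26.8% rose. Ctsb, Ctsc, Ctsh, Ctsl, Ctse, Ctsz and Sppl2a were not called in either fit.

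In the list for class II transcription, which has 15 genes, 14 were tested and Spi1 alone passed. Of all genes tested, 26.4% passed in either direction. Spi1 encodes PU.1, a factor of myeloid and B cells, and measured 67.7, 160 and 13.3 FPKM in WT and 0.359, 0.448 and 0.323 FPKM in KO. All 3 KO libraries lay far below WT 3, the lowest of the WT libraries. Its log2 fold change was -5.30 (SE 0.83, limma adjusted p = 0.00511), and -4.51 (SE 0.62, adjusted p = 0.00233) without WT 2. The parts of the promoter complex, Rfx5, Rfxap, Rfxank, Nfya, Nfyb, Nfyc and Creb1, had log2 fold changes between -0.33 and 0.97 and none was called. Without WT 2, Irf8 and Irf4, factors of B and dendritic cells, also fell (-1.47 and -1.42, limma adjusted p = 0.00737 and 0.0421), and Rfxap and Nfyb rose (0.44 and 0.57, limma adjusted p = 0.0401 and 0.011). The median of the list was -0.06 with WT 2 and 0.05 without it.

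For genes that act beside class II at the surface, 1 of the 3 tested of 7 fell, where 13.3% of all genes tested fell. The gene that fell was Icosl, a costimulatory ligand, with 5.61, 4.81 and 3.95 FPKM in WT and 0.4996, 0.605 and 1.49 FPKM in KO (log2 fold change -1.66, SE 0.28, limma adjusted p = 0.00666, and adjusted p = 0.00474 without WT 2). Cd83, which stabilises class II at the surface, measured 2.72, 43.4 and 1.35 FPKM in WT and had 0, 3 and 0 reads in KO. Its log2 fold change of -2.83 did not pass (limma adjusted p = 0.0973) until WT 2 was left out (-1.53, adjusted p = 0.0032).

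Among 6 partners of class II and CD74, Cd44 and Cxcr2 fell and Cd4 rose, where 13.3% of all genes tested fell and 13.1% rose. Cd4, the co-receptor that reads class II on T cells, measured 1.45, 2.13 and 2.90 FPKM in WT and 98.4, 95.3 and 50.5 FPKM in KO, the reverse of the class II chains. Its log2 fold change was 4.67 (SE 0.35, limma adjusted p = 0.000415) and 4.68 (SE 0.35, adjusted p = 0.000293) without WT 2. Cd44, which signals with CD74, had a log2 fold change of -2.28 (SE 0.38, limma adjusted p = 0.00675), and -2.65 (adjusted p = 0.000359) without WT 2. Cxcr2, a chemokine receptor of neutrophils that also binds MIF, the ligand of CD74, had one of -4.65 (SE 0.56, limma adjusted p = 0.00203), and -4.78 (adjusted p = 0.00184) without WT 2. After rescaling to TPM neither Cd44 nor Icosl passed (limma adjusted p = 0.16 and 0.0941, the highest over their alternatives). Mif, Lag3 and Cxcr4 were not called, but without WT 2 Mif and Lag3 rose (1.11 and 1.25, limma adjusted p = 0.00836 and 0.0321) and Cxcr4 fell (-1.77, limma adjusted p = 0.000954).

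Whether the members kept their proportions was asked with ratios within each library, which do not depend on how libraries were scaled. Of the 7 ratios chosen for all members, only H2-DMa to H2-DMb1 had groups that did not overlap, with 2.22, 3.26 and 4.89 in WT and 12.3, 13.2 and 22.8 in KO. The difference was 2.24 on the log2 scale (two-sided exact permutation p = 0.1, the smallest that 3 against 3 libraries allow, adjusted p = 0.7 over 7 ratios), and it was between 1.96 and 2.53 when each library was left out in turn. In contrast, H2-Aa to H2-Ab1, the chains of I-A, was 0.859, 1.02 and 0.761 in WT and 0.577, 3.49 and 0.349 in KO. WT libraries sat near equal levels, WT 2 included, and KO libraries scattered on both sides at few reads (exact permutation p = 1).

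Cd74 to H2-Ab1 overlapped as well, with 3.82, 8.38 and 4.70 in WT and 1.40, 11.997 and 11.6 in KO (exact permutation p = 1). Ctss to Cd74 was 1.29, 0.0422 and 1.17 in WT and 2.81, 3.45 and 1.29 in KO (exact permutation p = 0.2). WT 2 thus had far more Cd74 for its Ctss than any other library. A ratio chosen after its values were seen, H2-Oa to H2-Ob, was 0.207, 0.853 and 0.433 in WT and 87.8, 93.6 and 91.6 in KO. The difference was 7.74 on the log2 scale (exact permutation p = 0.1) and lay between 7.22 and 8.24 when each library was left out. The KO values rest on 7, 4 and 6 reads of H2-Ob, near the floor of 3 reads, so their size and closeness are uncertain.

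**Figure D3:**
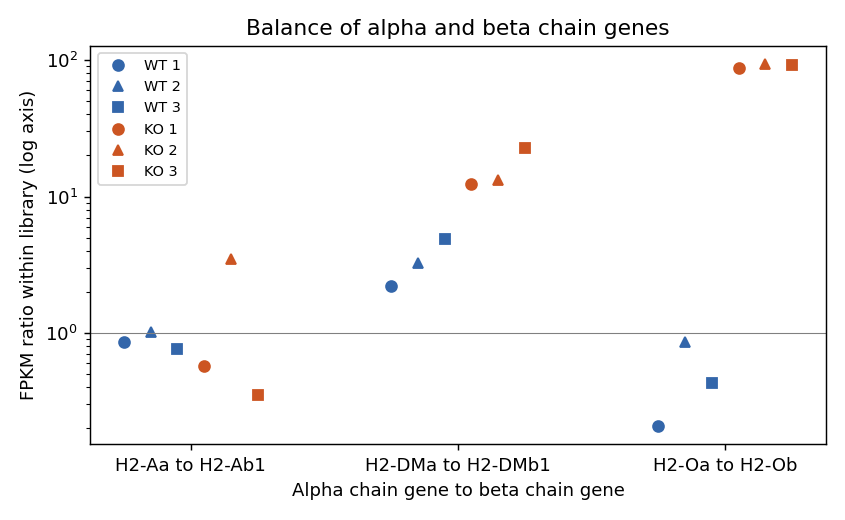
Ratio of FPKM of the alpha to the beta chain gene within each library for I-A, H2-DM and H2-O, on a log axis with a line at equal levels, WT in blue and KO in orange. The ratios of H2-DMa to H2-DMb1 and of H2-Oa to H2-Ob do not overlap between groups, whereas that of H2-Aa to H2-Ab1 does.

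Markers of cells that normally carry class II were read beside these genes. As with the members, many markers reached the level for testing through WT alone, so counts among those tested are descriptions, beside 13.3% of all genes tested that fell, 13.1% that rose and 24.0% with every WT library above every KO library. The 13 B-cell markers had 2 of 7 tested members called, Ighm and Cd22, both lower in KO, and in 11 of 13, untested ones included, every WT library lay above every KO library. Without Ighm the 12 others summed to 16.5, 1356 and 22.8 FPKM in WT and 3.31, 4.05 and 3.91 FPKM in KO. WT 2 stood far above the rest, and in KO 10 of the 13 markers were under 1 FPKM in all libraries, Ms4a1 and Pax5 among them, although none was at 0 in all 3. Conventional dendritic cell markers, of which Itgax was the highest in each WT library, came to 17.6 to 21.6 FPKM in WT and 0.484 to 0.597 FPKM in KO, and all 8 were under 1 FPKM in each KO library. Of these Cd209a was at 0 in all 3. Itgax, the only gene of this list that was tested, measured 14.9, 8.57 and 20.8 FPKM in WT. It made up most of the sum in WT 1 and WT 3. Each of the other markers of the list was highest in WT 2, and the sum without Itgax was not computed.

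Of the 12 monocyte and macrophage markers, 7 of 9 tested fell and none rose, and their sum was 604 to 5085 FPKM in WT and 16.4 to 29.9 FPKM in KO. Csf1r and Adgre1 were under 1 FPKM in all KO libraries. Neutrophil markers, from cells that carry little class II at rest, fell in 10 of 10, with sums of 6638 to 93870 FPKM in WT and 91.1 to 280 FPKM in KO. The 10 T-cell markers summed to 913 to 1609 FPKM in WT and 902 to 1154 FPKM in KO, and 1 of them, Cd5, fell. The 8 erythroid markers, none of them called, summed to 137, 68045 and 525 FPKM in WT and 126, 69.1 and 16.9 FPKM in KO. Without WT 2, 5 B-cell markers fell and 1 rose, 3 T-cell markers fell and 2 rose, 2 erythroid markers fell and 1 rose, and the counts for the other 3 lists were the same, where 25.3% of all genes tested fell and 26.8% rose. By flow cytometry, at another time after transplantation, the study reports more myeloid and B cells among GFP+ BM cells of KO than of WT mice. The RNA sums of B-cell, monocyte and neutrophil markers here were lower in KO. The reason for this difference was not tested. The part of any of the cell types above in the class II result was not tested.

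**Figure D4:**
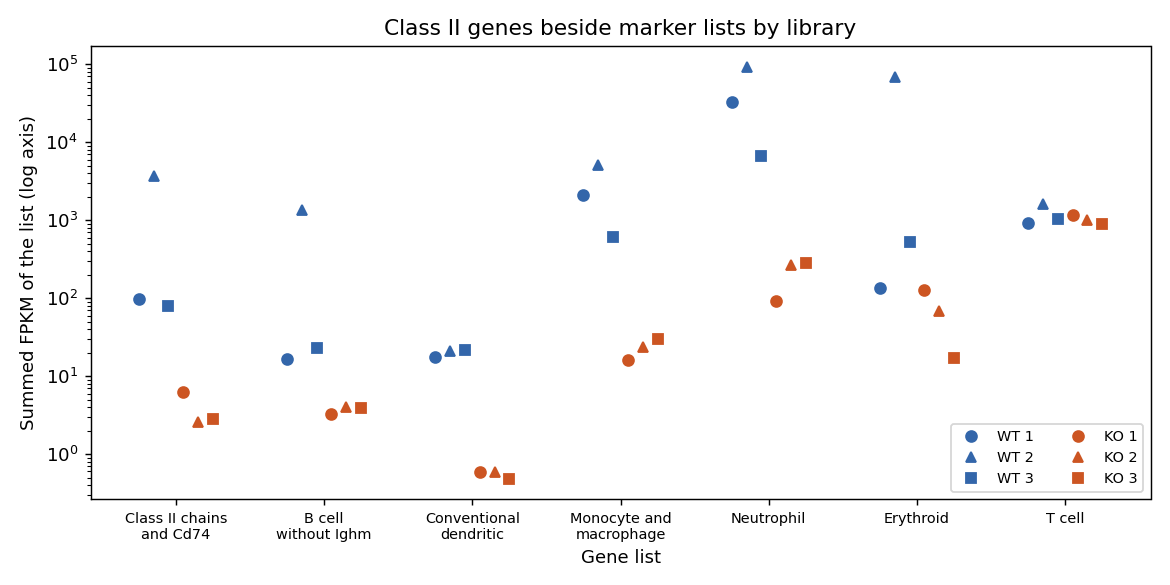
Summed FPKM of H2-Aa, H2-Ab1, H2-Eb1 and Cd74, and of marker lists of 6 cell types, in each library on a log axis. The class II sum is 80.1 to 3702 FPKM in WT and 2.56 to 6.22 FPKM in KO. The lists for B cells without Ighm, conventional dendritic cells, monocytes and macrophages, and neutrophils separate the groups in the same direction. The erythroid sums do so narrowly (137 FPKM in WT 1, 126 FPKM in KO 1), while the T-cell sums overlap.

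The sum of H2-Aa, H2-Ab1, H2-Eb1 and Cd74 was set against 3 marker sums within each library, and these ratios overlapped between the groups. Its ratio to monocyte and macrophage markers was 0.0465, 0.728 and 0.133 in WT and 0.380, 0.109 and 0.0946 in KO (exact permutation p = 1). To conventional dendritic cell markers it was 5.52, 176 and 3.71 in WT and 10.4, 4.31 and 5.84 in KO (exact permutation p = 0.9), and to all B-cell markers 0.136, 1.35 and 0.0605 in WT and 0.0872, 0.0709 and 0.152 in KO (exact permutation p = 0.7). In each of these ratios WT 2 lay above all KO libraries, and of WT 1 and WT 3, 1 lay within the KO range and the other below it. The highest monocyte and macrophage markers in each WT library were Lyz2 (1687, 4544 and 289 FPKM) and Ly6c2 (260, 361 and 282 FPKM). A ratio to that list without Lyz2 and Ly6c2 was not computed. With Ighm removed from the B-cell markers, a choice made after the values were seen, the ratio was 5.90, 2.73 and 3.52 in WT and 1.88, 0.633 and 0.722 in KO. These groups did not overlap (log2 difference -2.01, exact permutation p = 0.1, between -2.51 and -1.70 when each library was left out). Of these markers without Ighm, Blnk was the highest in KO 1 and KO 2 and Vpreb3 in KO 3. Blnk measured 0.411, 17.1 and 0.700 FPKM in WT and 1.34, 1.69 and 1.07 FPKM in KO. Vpreb3 measured 0.302, 246 and 0.526 FPKM in WT and 0.687, 1.11 and 1.66 FPKM in KO. Both lay higher in KO than in WT 1 and WT 3, and a ratio without them was not computed.

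**Figure D5:**
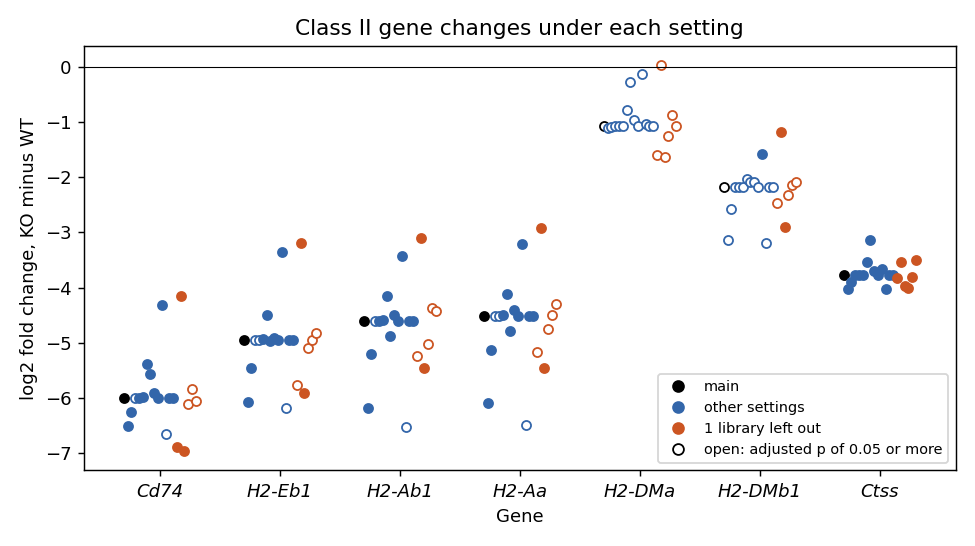
Log2 fold change of KO against WT for each tested class II member under the main setting and each of the 19 alternatives, in black (main), blue (other settings) and orange (1 library left out), with filled points where the adjusted p was under 0.05. Ctss is called under every setting, H2-DMa under none, and the chains and Cd74 lose their call when a KO library is left out.

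The profile over the 6 libraries that the 7 tested members share was last compared with 10382 protein-coding genes. The genes most like it were Arhgap45, S100a4, Ube2l6, Lgmn and Rab29, with Pearson's r of 0.999, 0.998, 0.998, 0.998 and 0.997 over 6 libraries. The members' own r to this profile ran from 0.874 for H2-DMa and 0.878 for Ctss to 0.999 for H2-Aa. WT 2 alone sets most of such a profile, and all genes share the 6 libraries and their composition, so these values are a description. Ube2l6, an enzyme of ISG15 conjugation, measured 6.33, 81.2 and 5.37 FPKM in WT and 0.995, 0.509 and 0.124 FPKM in KO, and S100a4, a calcium-binding protein of myeloid cells, had 0 FPKM in KO 2 and KO 3.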

How the data were processed

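RNA-seq values of 3 Phf6 WT and 3 Phf6 KO libraries were used as deposited. The authors deposited FPKM per gene. The submitters' processing notes name HISAT2 (2.0.5) and featureCounts (1.5.0-p3) and the build GRCm38 (mm10), and whether strand was used is not given in the sources used here. The study's own model was for counts, and a log-scale test was used here because the unit is FPKM. The members, gene lists and tests were chosen with earlier results of these data known, and the genes named are the 8 members, those of the lists, Phf6 and the 5 genes most like the members. Labels do not tie libraries to animals, so p-values measure the spread between libraries, which may be technical.

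FPKM times gene length gave whole reads in 100% of values (tolerance 0.01), and 13015823 to 18235095 reads per library were recovered. The authors' library size was 0.645 times that total in WT 2 and 1.006 to 1.21 times in the other libraries. FPKM therefore stands higher for a given share of reads in WT 2 than elsewhere. A floor of 3 reads was 0.161 to 0.255 RPM relative to the authors' library sizes, for counting error only. The 13393 genes that reached 1 FPKM in 3 or more of the 6 libraries were compared by limma (3.58.1, R 4.3.3, lmFit, eBayes with trend, two-sided) on log2(FPKM + 1), with Benjamini-Hochberg adjustment and a threshold of 0.05. Tested on simulated data for this comparison (13393 genes), the model found 48% of 100 genes with a log2 change of 2 and 80% of 100 with a log2 change of 4, and 6 calls were false. Ratios used exact permutation tests (SciPy 1.17.1). Deposited coordinates equal those of GENCODE M21 for 53462 of 54532 genes, and for 3 of the 8 members. The numbers of replicates were not used to pair samples. The correlation of deviations was 0.10, 0.10 and -0.15 for same-numbered libraries and -0.20 to 0.23 for the others. With 3 libraries per group this cannot exclude a pairing. The 19 alternatives changed the pseudocount (0.1, 0.5), filter, scaling, length trend, intensity trend, weights, model, block, gene class and libraries. Some genes of the lists are not reported here by name.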

Additional observations from a re-analysis of the deposited data

How the results depend on the processing

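Across all genes tested 3539 were called. The number was 1837 with a mean FPKM of at least 5 as the filter, 8461 with array weights, and between 1934 and 6967 when each library was left out in turn, the highest without WT 2. Of the 8 members 5 were called in the comparison of all libraries, 1 with no filter, 3 with the filter at a mean FPKM of 5, 1 with voom on the recovered reads, and 1 to 6 with a library left out (2 without WT 1, 6 without WT 2 or WT 3, 1 without any KO library). Of the 51 pathway genes 12 were called, 33 with array weights and 7 to 28 with a library left out. Rescaling to TPM moved the median of all genes from 0.09 to 0.86 on the log2 scale and the share of calls higher in KO from 49.6% to 67.8%, and 5 members remained lower. H2-DMa ranged from -1.64 to 0.040 with a library left out, and was above 0 without WT 2. With a library left out, the log2 difference of H2-Aa to H2-Ab1 lay between -0.96 and 0.70, of Cd74 to H2-Ab1 between -0.40 and 1.15, and of the class II sum to B-cell markers between -2.13 and 0.11, to conventional dendritic cell markers between -2.28 and 0.50 and to monocyte and macrophage markers between -0.98 and 1.00. The causes were not tested. Labels number the replicates 1 to 3 in both groups. Same-numbered libraries did not deviate together (r of 0.10, 0.10 and -0.15), which cannot exclude a pairing at this number of libraries. A fit with the replicate number as a block called 2676 genes and 5 members. Median-of-ratios scaling gave the same factor of 1.02 for every library and so changed nothing between them. The deposited values were thus already level by this measure, and this alternative could not test the scaling. With few reads in KO, the levels of H2-Ab1 in KO 2 and H2-Aa in KO 3 were at or under the floor of 3 reads.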

Other observations

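MHC class I genes present peptides from inside nearly all cells. Of 9 genes tested 3 fell and none rose, where 13.3% of all genes tested fell and 13.1% rose. The heavy chain H2-K1 measured 1155, 1859 and 1370 FPKM in WT 1, WT 2 and WT 3 and 476, 290 and 423 FPKM in KO 1, KO 2 and KO 3, with a log2 fold change of -1.88 (SE 0.48, limma adjusted p = 0.031). H2-D1 was at -1.70 (SE 0.45, limma adjusted p = 0.0335) and the loading factor Tapbp at -1.46 (SE 0.36, limma adjusted p = 0.0281). H2-K1 and H2-D1 kept their call without WT 2 but with no other library left out, and Tapbp kept it without WT 1, WT 2 or WT 3 but lost it without any KO library (limma adjusted p of 0.0785 to 0.125). None of the 3 passed after rescaling to TPM or with the replicate number as a block, and Tapbp alone passed with quantile normalization or with no filter. With quantile normalization H2-K1 and H2-D1 were at -0.61 and -0.51 (limma adjusted p = 0.401 and 0.41). Without WT 2 their log2 fold changes were -1.69, -1.47 and -1.11 (limma adjusted p = 0.00328, 0.00326 and 0.00414). B2m, the light chain, was at -0.54 (limma adjusted p = 0.553), and at -0.31 (limma adjusted p = 0.203) without WT 2. Without WT 2, Tap2, Psmb8 and Psmb9, which supply peptides, rose (0.82, 0.88 and 0.60, limma adjusted p = 0.0053, 0.00573 and 0.0307) and Nlrc5, the class I transactivator, fell (-0.90, limma adjusted p = 0.0149).

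Plasmacytoid dendritic cell markers were mixed. Of 6 markers 4 were tested, and Ccr9 rose (3.15, SE 0.21, limma adjusted p = 0.000302, and 3.19, adjusted p = 7.19e-05, without WT 2) while none of the tested fell. Of all genes tested, 13.1% rose and 13.3% fell. Siglech, a defining marker, measured 0.383, 15.9 and 0.0381 FPKM in WT and was at 0 in all KO libraries. Pacsin1, not tested either, measured 0.794, 1.69 and 3.98 FPKM in WT and 0.395, 0.0389 and 0.0286 FPKM in KO, so that for both every WT library lay above every KO library. Spib measured 1.04, 97.3 and 0.810 FPKM in WT and 14.9, 13.2 and 12.7 FPKM in KO. Without WT 2 the 4 markers tested all rose, where 26.8% of all genes tested rose and 25.3% fell. Ccr9 and Spib are also known from T-cell precursors.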
